A study of Mus musculus with 2 samples.

Results

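Metallothioneins are small cysteine-rich proteins that bind zinc, copper and cadmium. Of the 32285 genes listed in the files, the 3 metallothionein genes Mt1, Mt2 and Mt3 are described here across the cell classes of the mouse testis. They were picked by symbol with results of these data known: Mt1 for its difference between genotypes in peritubular myoid cells, Mt3 for its difference in Sertoli cells, and Mt2 as the close relative of Mt1. Those values are therefore a description and support nothing. A further family member, Mt4, is listed in the files and had 1 UMI over all cells.

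In the mouse, Mt1 and Mt2 are expressed in most tissues and are switched on by zinc, cadmium and copper through the zinc-sensing transcription factor MTF1, which binds metal response elements in their promoters. Glucocorticoids, interleukin-6 acting through STAT3, and oxidative stress also induce them. Mt3 is best known from brain, where it was described as a growth inhibitory factor, and is not induced by metals in the way of Mt1 and Mt2. Mt4 is known from stratified squamous epithelium. Male germ cells of the mouse are a known site of metallothionein mRNA.

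Whole testes of C57BL/6 mice were taken at 13 days of age, when the first wave of spermatogenesis is entering meiosis, and single cells were profiled with 10x Genomics 3′ version 3 chemistry. There was 1 library from a conditional knockout of Psma7 (Psma7 F/-;Stra8-Cre KI/+) and 1 from a control (Psma7 F/+). Psma7 encodes an alpha subunit of the 20S proteasome core. Stra8-Cre acts in spermatogonia and later germ cells, so the floxed copy is meant to be lost in germ cells, while every cell of the knockout, somatic cells included, carries 1 null copy. All control cells carry a floxed and a wild-type copy and no Cre. The number of animals behind each library is not given in the labels. With 1 library per genotype no difference between genotypes can be tested: genotype, animal, dissociation and library cannot be told apart. All intervals below are 95% intervals that cover counting error only.

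After filtering, 10589 knockout and 10737 control cells remained, with 90948607 and 115929415 UMIs (unique molecular identifiers, each standing for 1 captured transcript) and medians of 5395 and 8046 UMIs per cell. Clusters were named by resemblance to marker genes, with the metallothioneins kept out of the clustering. The targeted gene was lower throughout the knockout: Psma7 stood at 94.4 CPM (UMIs of the gene per 1000000 UMIs of the class) in knockout and 245 CPM in control undifferentiated spermatogonia, and at 82.8 and 198 CPM in peritubular myoid cells. Of the called cells, 29 barcodes were listed in both libraries. The level in free RNA was taken from empty barcodes, those of 10 to 100 UMIs. In all, 9 classes held at least 50 cells in both libraries, and cells entering meiosis were found in the control library only (0 of 10589 knockout cells, 1269 of 10737 control cells).

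The 3 genes sit in 1 cluster on mouse chromosome 8, all on the plus strand of GRCm38 in the GENCODE M21 annotation. From upstream to downstream they are Mt4 (chr8:94137197-94139031), Mt3 (chr8:94152607-94154146, ENSMUSG00000031760), Mt2 (chr8:94172664-94173568, ENSMUSG00000031762) and Mt1 (chr8:94179082-94180327, ENSMUSG00000031765). Mt2 and Mt1 are 5513 bases apart, and Mt3 and Mt2 are 18517 bases apart. Each described transcript has 3 exons. The coding sequences are shown because they carry what defines the family: codons for cysteine, the metal-binding residue, are in capitals. They run 5′ to 3′ and were joined from the coding exons of the GENCODE M21 transcripts.
Mt1: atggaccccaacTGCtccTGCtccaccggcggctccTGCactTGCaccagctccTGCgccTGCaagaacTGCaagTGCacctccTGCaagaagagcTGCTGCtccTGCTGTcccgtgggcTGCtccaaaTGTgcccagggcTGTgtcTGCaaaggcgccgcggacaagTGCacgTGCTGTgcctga
Mt2: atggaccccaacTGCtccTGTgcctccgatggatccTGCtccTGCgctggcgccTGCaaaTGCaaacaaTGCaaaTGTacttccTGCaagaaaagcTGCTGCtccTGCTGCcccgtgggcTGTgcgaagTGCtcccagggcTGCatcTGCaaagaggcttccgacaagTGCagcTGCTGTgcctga
Mt3: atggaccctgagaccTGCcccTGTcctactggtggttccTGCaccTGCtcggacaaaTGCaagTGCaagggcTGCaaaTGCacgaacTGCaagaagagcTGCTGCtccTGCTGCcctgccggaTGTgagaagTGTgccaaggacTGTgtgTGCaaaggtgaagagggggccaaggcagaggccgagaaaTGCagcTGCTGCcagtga
Each gene has 20 cysteine codons, out of 61 codons before the stop in Mt1 and in Mt2 and out of 68 in Mt3. Mt1 and Mt2 share 148 of 186 coding bases (79.6%), with no gap. Mt3 shares 137 of 186 aligned bases with Mt1 (73.7%) and 140 with Mt2 (75.3%), after 21 gap bases that reflect its longer reading frame. Whether reads of 1 gene were counted for another cannot be read from UMI tables.

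The promoters are shown because metal response elements are known from those of Mt1 and Mt2. Whether such elements bear on any level given here was not tested. The windows come from RefSeq on GRCm38.p6, run from 250 bases before to 50 bases after the RefSeq gene start, and have the core of the metal response element, TGCACNC or TGCGCNC on either strand, in capitals. The windows are chr8:94178839-94179138 for Mt1, chr8:94172368-94172667 for Mt2 and chr8:94152357-94152656 for Mt3, all on the plus strand.
Mt1: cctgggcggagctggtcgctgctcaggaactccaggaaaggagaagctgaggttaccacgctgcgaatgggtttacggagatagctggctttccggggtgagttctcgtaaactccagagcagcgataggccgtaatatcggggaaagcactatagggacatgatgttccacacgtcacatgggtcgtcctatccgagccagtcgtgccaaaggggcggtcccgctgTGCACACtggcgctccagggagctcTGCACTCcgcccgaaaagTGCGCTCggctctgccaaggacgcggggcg
Mt2: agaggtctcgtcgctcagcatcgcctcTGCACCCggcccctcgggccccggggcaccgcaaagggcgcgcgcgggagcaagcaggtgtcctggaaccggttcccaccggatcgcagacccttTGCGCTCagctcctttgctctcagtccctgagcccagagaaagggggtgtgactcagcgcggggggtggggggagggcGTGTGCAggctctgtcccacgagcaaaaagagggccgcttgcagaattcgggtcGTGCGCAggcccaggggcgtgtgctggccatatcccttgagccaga
Mt3: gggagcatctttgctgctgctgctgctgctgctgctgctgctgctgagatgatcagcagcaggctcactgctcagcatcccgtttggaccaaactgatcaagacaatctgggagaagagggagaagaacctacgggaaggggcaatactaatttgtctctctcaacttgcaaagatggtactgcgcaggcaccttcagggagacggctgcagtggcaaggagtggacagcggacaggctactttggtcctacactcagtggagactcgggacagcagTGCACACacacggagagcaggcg
The Mt1 window held 3 matches, starting at -23, 3 and 21 relative to the RefSeq gene start, and the Mt2 window held 4, starting at -223, -128, -50 and 5. For Mt1 and Mt2 the RefSeq start is not the GENCODE start given above. The Mt2 window ends at 94172667, close to the GENCODE start of 94172664. Elements outside these windows were not sought. The Mt3 window held 1, at 28, and so did the Mt4 window. No matches overlapped. Of 32851 promoter windows of this length, 25.7% held at least 1 match, 1.97% at least 3 and 0.517% at least 4. A match is a stretch of letters and not a site shown to be bound.

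In the knockout the highest Mt1 levels were in germ cells whose stage was not named, Leydig cells and peritubular myoid cells. In the control Leydig cells led, and those germ cells were below myoid cells and undifferentiated spermatogonia. Germ cells whose stage was not named had 1145 CPM (994 to 1312) in the knockout, on 61 cells, and 292 CPM (283 to 301) in the control. Leydig cells, the steroid-producing cells of the interstitium, had 997 CPM in the knockout (interval 972 to 1022) and 744 CPM in the control (718 to 770.2). Peritubular myoid cells, the contractile cells around the tubules, had 956 CPM (932 to 980.4) in the knockout and 347 CPM (331 to 363) in the control. In the knockout Leydig and myoid cells differed by no more than their intervals, while in the control Leydig cells stood well above myoid cells.

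Undifferentiated spermatogonia had 485 CPM of Mt1 in the knockout and 344 CPM in the control. Differentiating spermatogonia had 460.4 CPM in the knockout and 305 CPM in the control. The intervals of the 2 spermatogonial classes overlapped in the knockout but not in the control, and in the control those of undifferentiated spermatogonia and myoid cells overlapped. Lower came interstitial stroma with 283 CPM in the knockout and 202 CPM in the control, then macrophages with 176 and 153 CPM in knockout and control. Sertoli cells, the supporting cells of the tubule, had 120.3 CPM in the knockout and 106 CPM in the control. Endothelial cells were lowest of the classes present in both libraries, with 77.8 CPM in the knockout and 43.2 CPM in the control. Mt1 was thus higher in the knockout library in all 9 classes, by 1.14-fold (1.09 to 1.19) in Sertoli cells to 3.93-fold in germ cells whose stage was not named. The 3.93-fold value sets different clusters against each other. Within cluster 22, which held most of that class in the knockout, Mt1 was 1.52-fold (1.28 to 1.79) higher. In macrophages the 1.15-fold difference had an interval of 0.962 to 1.37.

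**Figure D1:**
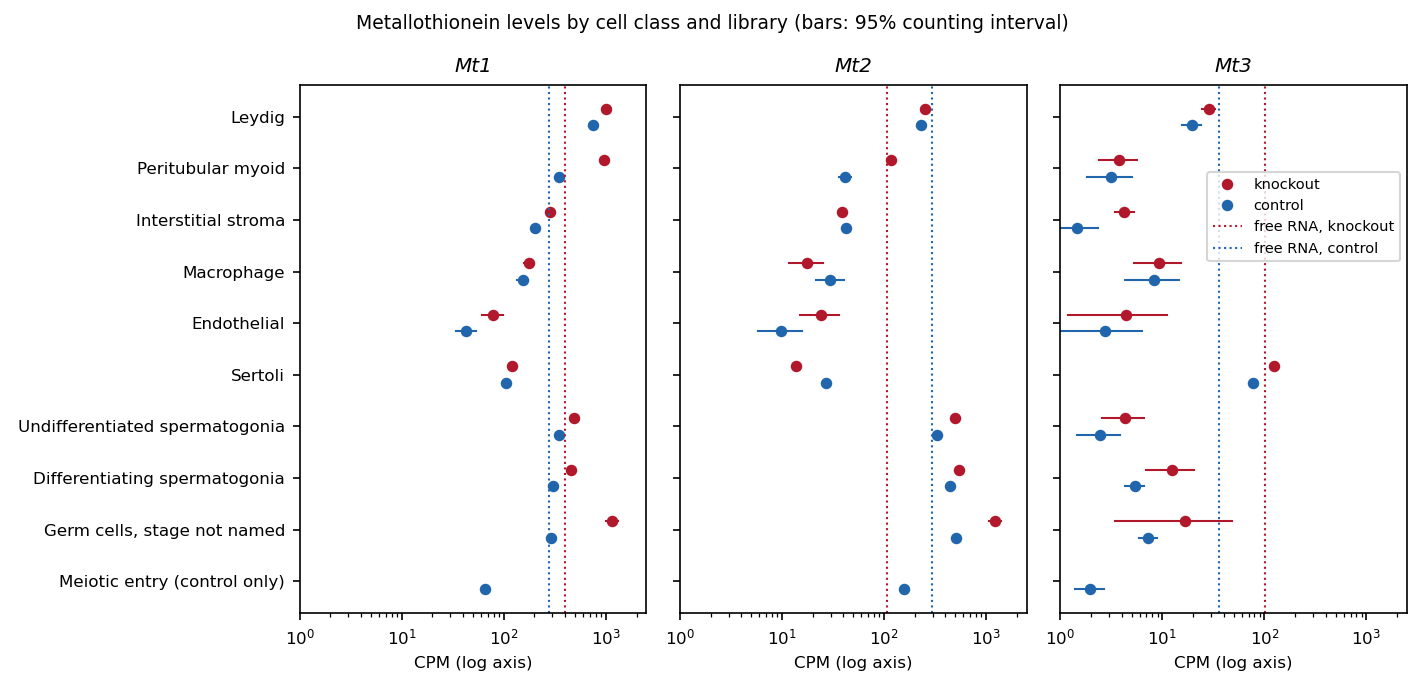
Levels of Mt1, Mt2 and Mt3 in CPM (log axis) by cell class, knockout (red) above control (blue), with 95% counting intervals, and dotted lines at the level in free RNA. Mt1 was 1145 CPM in knockout and 292 CPM in control germ cells of no named stage and 997 CPM in knockout and 744 CPM in control Leydig cells, Mt2 was highest in germ cells, and Mt3 stood out in Sertoli cells with 124 CPM in the knockout and 77.1 CPM in the control.

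Mt2 had another order, led by germ cells. Germ cells whose stage was not named had 1217 CPM (1061 to 1389) in the knockout and 506 CPM (494 to 518) in the control. Differentiating spermatogonia had 547 CPM in the knockout and 439.7 CPM in the control, and undifferentiated spermatogonia had 498 CPM in the knockout and 331 CPM in the control. Leydig cells followed with 252 CPM in the knockout and 228 CPM in the control. Myoid cells had 117 CPM (109 to 126) in the knockout and 41.6 CPM (36.4 to 47.4) in the control, where they overlapped with stroma.

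Mt2 was low in the remaining somatic classes. Stroma had 39.0 CPM in the knockout and 42.6 CPM in the control, a ratio of 0.916 (0.819 to 1.03). Sertoli cells had 13.7 CPM in the knockout and 26.8 CPM in the control. Macrophages had 17.5 CPM in the knockout and 29.8 CPM in the control, and endothelial cells 24.1 CPM in the knockout and 9.84 CPM in the control. Free RNA held 107 CPM of Mt2 in the knockout library and 293 CPM in the control library. The free RNA share of a class, read from markers the class should lack, was at most 2.24% in knockout and 12.9% in control macrophages, which would give up to 2.40 and 37.7 CPM of Mt2. Both limits were read from erythroid markers, on 17 knockout and 20 control UMIs in macrophages and 746 and 118 UMIs in free RNA, so they are rough. By this limit the control macrophage level of 29.8 CPM was no higher than free RNA could give. The same holds for control endothelial cells, where 9.84 CPM stands against up to 17.2 CPM.

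Mt3 was largely a Sertoli cell transcript in these libraries, and it was chosen for its difference between genotypes in those cells. Sertoli cells had 124 CPM (119.9 to 128) in the knockout and 77.1 CPM (73.9 to 80.4) in the control. Leydig cells came next, with 28.5 CPM (24.5 to 33.0) in the knockout and 19.5 CPM (15.5 to 24.2) in the control, where free RNA would give up to 1.66 and 0.854 CPM. All other classes were at or below 16.6 CPM in the knockout and 8.31 CPM in the control, most on few UMIs. In endothelial cells, for example, Mt3 had 4 UMIs in the knockout and 5 in the control.

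No class here is known to lack Mt1 or Mt2, so no share of cells could be set against a negative class. Of myoid cells, 51.9% in the knockout and 31.2% in the control had an Mt1 UMI, at medians of 6832 and 4700 UMIs per cell. With every cell thinned to 1000 UMIs the shares were 30.9% (27.7 to 34.3) in the knockout and 12.8% (10.6 to 15.2) in the control. Of Sertoli cells, 39.6% in the knockout and 33.1% in the control had an Mt3 UMI, at medians of 3930 and 5148 UMIs, and 11.8% and 7.78% after thinning. In myoid cells Mt3 was low, at 3.76 CPM in the knockout and 3.15 CPM in the control, where free RNA could give up to 2.13 and 1.22 CPM. The thinned Mt3 shares there were 0.258% in the knockout and 0.586% in the control.

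A difference over 2-fold between libraries was the exception among the members in most classes. In Leydig cells (2.5% of 12420 genes past 2-fold in either direction), macrophages (4.33% of 9954), undifferentiated spermatogonia (9.09% of 14990) and Sertoli cells (14% of 16686) no member passed it. In stroma (2.85% of 14755 genes) Mt3 did, at 4.26 CPM in the knockout and 1.48 CPM in the control (87 and 18 UMIs), where free RNA could give up to 1.81 and 1.25 CPM, so that the control level is close to that limit and the knockout level is above it. In differentiating spermatogonia (11.1% of 15347 genes) Mt3 did, at 12.4 CPM in the knockout and 5.40 CPM in the control (15 and 85 UMIs). In endothelial cells (3.96% of 9322 genes) Mt2 did, at 24.1 CPM in the knockout and 9.84 CPM in the control (22 and 18 UMIs). In unstaged germ cells (46.8% of 12899 genes) all 3 members did, Mt3 on 3 knockout UMIs.

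Over the peritubular myoid class, Mt1 and Mt2 were both higher in the knockout library and by a like factor, while Mt3 had few UMIs. Mt1 had 6099 UMIs in 776 knockout cells and 1875 UMIs in 853 control cells, a ratio of 2.76 (2.62 to 2.90) or 1.46 on the log2 scale. Mt2 had 749 and 225 UMIs in knockout and control, a ratio of 2.82 (2.43 to 3.29) or 1.49 on the log2 scale. Mt3 had 24 and 17 UMIs in knockout and control, with an interval of 0.616 to 2.37 for its ratio. Of 12868 genes measured in these cells, 3.6% differed by over 2-fold in either direction and 1.83% were over 2-fold higher. Mt1 ranked 80 and Mt2 ranked 74 from the highest ratio. Mt1 was chosen for this contrast, and Mt2 was read in the same contrast, so nothing is read from these ranks.

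The class is made of clusters 5 and 15, which differ in depth and in metallothionein level. Both carry the smooth muscle genes of myoid cells: Acta2, smooth muscle actin, stood at 4657 CPM in knockout and 7510 CPM in control cells of cluster 15, and at 4019 and 5791 CPM in cluster 5. Over the class the 10 myoid markers summed to 9689 CPM in the knockout and 14067 CPM in the control, with 1 of 10 higher in the knockout and 0 at 0 UMIs in either library, and the part of this in the Mt1 and Mt2 levels was not tested. Cluster 15 held 341 knockout cells (43.9% of the class) and 220 control cells (25.8%). Its Mt1 level was 1323 CPM in the knockout and 681 CPM in the control, 0.96 on the log2 scale (0.88 to 1.04). Cluster 5, with medians of 2841 UMIs in knockout and 3497 in control cells, had 102 CPM in the knockout and 57.4 CPM in the control, 0.83 on the log2 scale (0.52 to 1.13). With the control's mix of both clusters given to each library, Mt1 would be 669 CPM in the knockout and 347 CPM in the control, a ratio of 1.93 in place of 2.76.

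Mt2 did not follow Mt1 in both clusters. In cluster 15 it was 162 CPM in the knockout and 63.7 CPM in the control, 1.34 on the log2 scale (1.10 to 1.60). In cluster 5 it was 14.1 CPM in the knockout and 22.5 CPM in the control, on 27 and 65 UMIs, a log2 ratio of -0.66. Free RNA could give up to 2.27 CPM of Mt2 in knockout and 10.1 CPM in control myoid cells. Immediate-early genes, which dissociation is known to induce, summed to 33573 CPM in knockout and 28659 CPM in control cells of cluster 15, and to 10552 and 8481 CPM in cluster 5. Their part in the Mt1 and Mt2 levels was not tested.

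**Figure D2:**
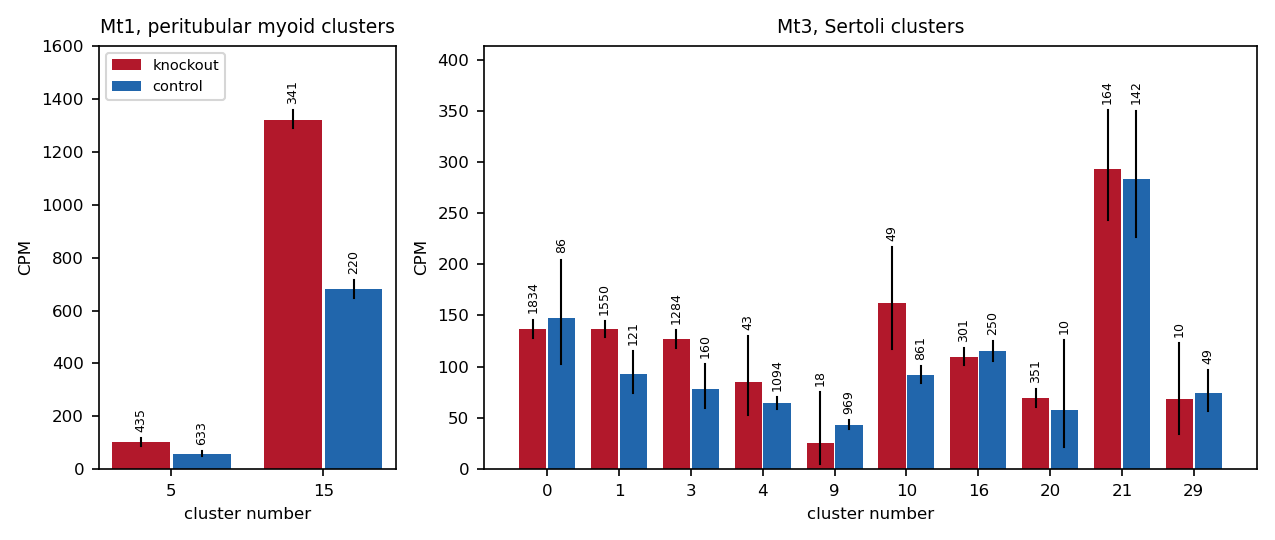
Left, Mt1 in the 2 peritubular myoid clusters, and right, Mt3 in the Sertoli clusters with at least 10 cells in both libraries, in CPM, knockout (red) left of control (blue), with 95% counting intervals and cell numbers above the bars. Mt1 in cluster 15 was 1323 CPM in the knockout and 681 CPM in the control, whereas Mt3 in the shared Sertoli clusters 16 and 21 lay within the intervals of each other.

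Mt1 was unevenly spread over myoid cells. After thinning to 1000 UMIs, 536 of 776 knockout cells (69.1%) and 744 of 853 control cells (87.2%) had no Mt1 UMI. At the other end, 20 knockout cells (2.58%, interval 1.58 to 3.95) and 5 control cells (0.586%, 0.191 to 1.36) had 5 or more. In the knockout, 1 cell had 10. The 10% of cells with the most Mt1 held 59.0% of the thinned Mt1 UMIs in the knockout and 87.8% in the control, where few cells had any. The mix of clusters differed as well: all 20 knockout and all 5 control cells with 5 or more were in cluster 15, where they were 5.87% (3.62 to 8.91) of knockout and 2.27% (0.742 to 5.22) of control cells, with intervals that overlap. In cluster 15, 194 of 341 knockout cells and 82 of 220 control cells had an Mt1 UMI after thinning, and in cluster 5, 46 of 435 knockout and 27 of 633 control cells had one.

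**Figure D3:**
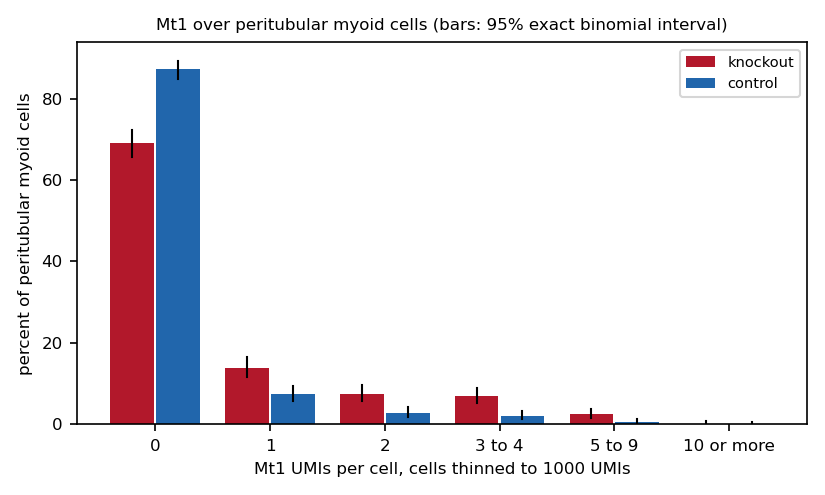
Percent of peritubular myoid cells (776 knockout in red, 853 control in blue) by Mt1 UMIs after thinning each cell to 1000 UMIs, with exact binomial 95% intervals. Cells without Mt1 made up 69.1% of knockout and 87.2% of control cells, and the knockout bars are higher in every bin with Mt1.

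In knockout myoid cells Mt2 was seen more often in cells with Mt1 than in cells without, while in control myoid cells the shares ran in opposite directions in clusters 5 and 15, on few cells. After thinning, Mt2 was seen in 18.3% (13.6 to 23.8) of the 240 knockout cells with Mt1 and in 2.80% (1.57 to 4.57) of the 536 without. In the control it was seen in 7.34% (3.22 to 14.0) of the 109 cells with Mt1 and in 3.90% (2.63 to 5.55) of the 744 without, with intervals that overlap. Within cluster 15, Mt2 was in 20.1% (14.7 to 26.4) of knockout cells with Mt1 and 6.80% (3.31 to 12.2) without, but in 4.88% of control cells with Mt1 and 8.70% (4.57 to 14.7) without, on 4 and 12 cells, with intervals that overlap. Within cluster 5 it was in 10.9% of knockout cells with Mt1 and 1.29% without, and in 14.8% of control cells with Mt1 and 2.81% without, on 5 and 4 cells with both genes in knockout and control. In Leydig cells Mt2 was more frequent with Mt1 in both libraries: Mt2 in 27.8% of cells with Mt1 and 8.55% of cells without in the knockout, and in 26.7% and 8.97% in the control. Cell quality and type within a class differ along with detection, so these shares describe the libraries only.

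Of the 7 gene lists read in the same cells, those of metal handling differed little in myoid cells. Of 18 measured genes of zinc transport and MTF1, 10 were higher in the knockout and 0 differed by over 2-fold, with a median log2 ratio of 0.02 against -0.07 over all 12868 genes, of which 40.3% were higher. Mtf1 itself, the zinc sensor, was 21.5 CPM in the knockout and 23.9 CPM in the control. The zinc importers Slc39a8 (0.63) and Slc39a1 (0.35) had the highest log2 ratios of the list, and the importer Slc39a13 (-0.16) and the exporter Slc30a6 (-0.79) the lowest. Of 14 copper and iron genes, 5 were higher and 0 passed 2-fold. The iron exporter Slc40a1 had a log2 ratio of 0.79 and Slc31a2 of 0.55, while the copper chaperones Cox17 and Ccs had -0.33 and -0.44.

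The lists of other known inducers were mixed in myoid cells, where 40.3% of all genes were higher and 1.83% were over 2-fold higher. Of 12 glucocorticoid response genes, 6 were higher and 0 passed 2-fold: Cebpd had a log2 ratio of 0.57 and Dusp1 of 0.43, against -0.33 for Fkbp5 and -0.55 for Pdk4. Dusp1 is in the immediate-early list too. Of 17 targets of the antioxidant factor NRF2, 6 were higher, with a median of -0.25, from 0.92 for the cystine transporter Slc7a11 and 0.56 for Osgin1 to -0.64 for Gsr and -0.84 for Gclc, both enzymes of glutathione metabolism. Of 13 heat shock genes, 11 were higher (median 0.23), with 0.56 for Hspa8 and 0.55 for Dnajb1, against -0.01 for Hsf1 and -0.64 for Hspb1. Of 19 immediate-early genes, 18 were higher (median 0.53), from 1.57 for Klf2 and 0.85 for Socs3 to 0.21 for Ier3 and -0.36 for Ccn1. Klf2 alone passed 2-fold. Within the clusters the immediate-early and heat shock lists differed less. Immediate-early genes were higher for 13 of 19 in cluster 15 (median 0.15) and 15 of 19 in cluster 5 (median 0.31). Heat shock genes were higher for 10 of 13 in cluster 15 (median 0.07) and 5 of 13 in cluster 5 (median -0.03). Of all genes, 46.0% were higher in cluster 15 and 45.9% in cluster 5. The median of NRF2 targets was -0.33 in cluster 15 and -0.19 in cluster 5, and that of glucocorticoid genes -0.17 and -0.07.

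The interleukin-6 and STAT3 list had the highest median in myoid cells, 0.60, with 8 of 9 measured genes higher, against 40.3% of all genes. Its members Socs3 and Junb are in the immediate-early list too. Of the 9 genes, 2 were over 2-fold higher, as were 1.83% of all genes. Il6 itself had 56 UMIs in the knockout, all in cluster 15, and 5 UMIs in the control, a log2 ratio of 3.12 (1.94 to 4.92). Osmr, the oncostatin M receptor, was 163 CPM in the knockout and 64.8 CPM in the control, a log2 ratio of 1.33. The shared receptor subunit Il6st had 0.34 and Lifr had -0.04. Within cluster 15 the median of the list was 0.31 against -0.03 over all genes. There 9 of 9 were higher, against 46.0% of all genes. In cluster 5 the median was 0.30 and 7 of 8 were higher, against 45.9% of all genes. How far any of these genes bears on Mt1 and Mt2 was not tested.

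In Sertoli cells the 3 members went different ways. Mt3 had 4055 UMIs in 5604 knockout cells and 2217 UMIs in 3742 control cells, a ratio of 1.60 (1.52 to 1.69) or 0.68 on the log2 scale. Mt1 had 3943 UMIs in the knockout and 3038 in the control, a ratio of 1.14 (1.09 to 1.19). Mt2 had 449 UMIs in the knockout and 772 in the control, a ratio of 0.510 (0.453 to 0.574), while free RNA would give up to 4.97 of its 13.7 CPM in the knockout and 12.6 of its 26.8 CPM in the control. Free RNA could also give up to 4.67 CPM of Mt3 in knockout and 1.53 CPM in control Sertoli cells.

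The Sertoli cells of the libraries fell largely into different clusters, and Mt3 differed both between and within clusters. Clusters 0, 1, 3 and 20 held mostly knockout cells and clusters 4, 9 and 10 mostly control cells. In clusters 0, 1 and 3, Mt3 was 137, 137 and 127 CPM in knockout cells and 147, 92.9 and 78.7 CPM in the few control cells found there (86, 121 and 160 cells). The log2 ratios were -0.13 (-0.59 to 0.42) in cluster 0, 0.55 (0.23 to 0.90) in cluster 1 and 0.67 (0.29 to 1.10) in cluster 3, the last about that of the class. Cluster 9, with 969 control cells, had 43.3 CPM in the control, on the low end, and 25.8 CPM in the 18 knockout cells. In cluster 10 it was 162 CPM in 49 knockout cells and 92.0 CPM in 861 control cells, and in cluster 4 it was 85.2 CPM in 43 knockout cells and 64.5 CPM in 1094 control cells. Clusters 16 and 21 held cells of both libraries. In cluster 16 Mt3 was 109.7 CPM in 301 knockout cells and 115 CPM in 250 control cells, -0.07 on the log2 scale (-0.23 to 0.09). In cluster 21, with medians of 1626 UMIs in knockout and 1656 in control cells, it was 293 CPM in the knockout and 284 CPM in the control, 0.045 on the log2 scale (-0.36 to 0.46). With the control's mix of clusters given to each library, Mt3 would be 91.9 CPM in the knockout and 77.1 CPM in the control, a ratio of 1.19 in place of 1.60.

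Unlike Mt3, Mt2 was lower in knockout cells of all 5 Sertoli clusters with at least 50 cells in each library. In cluster 16 it was 18.8 CPM in the knockout and 41.9 CPM in the control, a log2 ratio of -1.15 (-1.49 to -0.82). In cluster 0 it was 15.7 CPM in the knockout and 46.2 CPM in the control. The other 3 had log2 ratios from -1.67 to -0.96. Mt2 in free RNA was lower in the knockout library too, at 107 CPM against 293 CPM in the control. Mt1 in the same 5 clusters ran from -0.53 to 0.03 on the log2 scale, so its higher class level in the knockout was not seen within them.

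Of the lists, immediate-early and heat shock genes had the highest medians in Sertoli cells and zinc genes the lowest. Of all 16686 genes measured there, 54.2% were higher in the knockout. Immediate-early genes were higher for 18 of 19 (median 1.08 against 0.05 over 16686 genes), 11 of them by over 2-fold as were 9.79% of all genes, led by Nr4a1 (1.93) and Klf4 (1.75), with Ier3 (0.50) and Klf6 (-0.05) at the low end. Heat shock genes were higher for 13 of 13 (median 0.54), from 1.19 for Hspa1b and 1.15 for Dnajb1 to 0.23 for Hspe1 and 0.19 for Hsf1. Zinc genes were higher for 6 of 18 (median -0.15), with Slc39a13 at 0.67 and Slc39a1 at 0.66, the exporter Slc30a4 at -0.45 and Mtf1 at -0.47. Copper and iron genes were higher for 9 of 14 (median 0.12), from 0.78 for the transferrin receptor Tfrc and 0.62 for Slc40a1 to -0.59 for Slc31a2 and -0.66 for the copper pump Atp7a.

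The counts of the other inducer lists can be set against the 54.2% of all genes that were higher. Glucocorticoid response genes were higher for 8 of 12, with Dusp1 at 1.55, Errfi1 at 1.05, Zbtb16 at -0.42 and Tsc22d3, a classic glucocorticoid target, at -1.05. NRF2 targets were higher for 13 of 17 (median 0.26), with Osgin1 at 1.46 on 23 and 7 UMIs in knockout and control, Nqo1 at 0.80, Gclm at -0.11 and Gsr at -0.74. Interleukin-6 and STAT3 genes were higher for 6 of 8, with Socs3 at 0.99, Junb at 0.99, Il6ra at -0.17 and Lifr at -0.49. Dusp1, Socs3 and Junb are in the immediate-early list too. Summed immediate-early genes were 8864 CPM in knockout and 4242 CPM in control Sertoli cells. Their part in the Mt3 level was not tested.

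In the germ line of the control, Mt1 and Mt2 were lower in clusters 11 and 18, which carry meiotic genes, than in spermatogonia. In control undifferentiated spermatogonia (cluster 13, Gfra1 at 267 CPM) Mt1 was 344 CPM and Mt2 was 331 CPM. In control differentiating spermatogonia (cluster 12, Kit at 211 CPM) Mt1 was 305 CPM and Mt2 was 439.7 CPM. Cluster 8, marked by Dmrtb1 and Esx1, had 268 CPM of Mt1 and 476 CPM of Mt2. Cluster 11, marked by Stra8 at 1117 CPM, had 96.7 CPM of Mt1 and 227 CPM of Mt2. Cluster 18, marked by Meiob at 291 CPM and Sycp3, a synaptonemal complex gene, at 2814 CPM, had 20.7 CPM of Mt1 and 55.8 CPM of Mt2. Both genes were thus lower in cluster 18 than in cluster 13, at medians of 15356 and 13350 UMIs per cell. Cluster 22, with few UMIs per cell, did not fall in with this: it had Stra8 at 669 CPM and Sycp3 at 335 CPM in the control, with 815 CPM of Mt1 and 1158 CPM of Mt2. These values of the clusters are from the 1 control library, whose free RNA held 278 CPM of Mt1 and 293 CPM of Mt2.

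**Figure D4:**
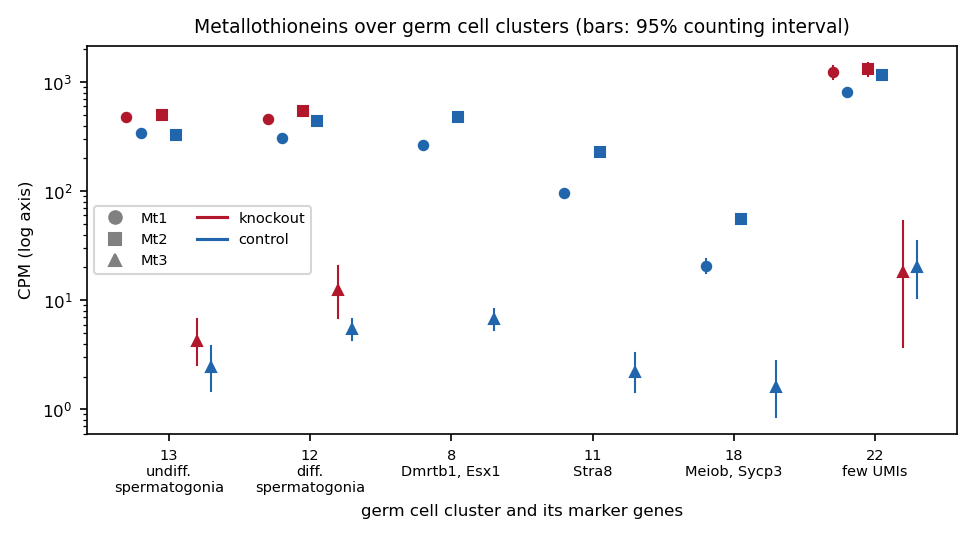
Mt1 (circles), Mt2 (squares) and Mt3 (triangles) over germ cell clusters in CPM (log axis), knockout (red) left of control (blue), with 95% counting intervals. In the control Mt2 was 331 CPM in cluster 13, 476 CPM in cluster 8 and 55.8 CPM in cluster 18, and only clusters 13, 12 and 22 held at least 10 knockout cells.

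Both spermatogonial classes had more Mt1 and Mt2 in the knockout library. In undifferentiated spermatogonia, Mt1 was 1.41-fold (1.33 to 1.49) and Mt2 1.51-fold (1.42 to 1.60) higher, over 288 knockout and 513 control cells. In differentiating spermatogonia Mt1 was 1.51-fold (1.38 to 1.65) and Mt2 1.25-fold (1.15 to 1.35) higher, over 51 knockout and 771 control cells. Median depths were close in undifferentiated spermatogonia, at 13314 UMIs in knockout and 13350 in control cells. Their summed immediate-early genes were 1898 CPM in the knockout and 1093 CPM in the control, and markers of some other cell types were higher too. Sertoli markers summed to 539 CPM in knockout and 289 CPM in control undifferentiated spermatogonia, and to 500.2 and 264 CPM in differentiating spermatogonia, with 16 of 18 higher in each. Stroma markers summed to 193 and 135 CPM in undifferentiated spermatogonia and to 200.4 and 141 CPM in differentiating spermatogonia, with 11 of 12 higher in each. Not all lists went this way. Myoid markers summed to 271 CPM in knockout and 263 CPM in control undifferentiated spermatogonia, with 2 of 10 higher. In differentiating spermatogonia, rete or mesothelial markers (118 CPM in knockout, 126 CPM in control) and lymphocyte markers (4.14 and 7.12 CPM) summed to less in the knockout. The part of these genes in the difference was not tested.

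Germ cells whose stage was not named were not comparable as a class. Of 61 knockout cells 57 were in cluster 22, which has few UMIs per cell (medians of 1693 in knockout and 1872 in control), whereas 1002 of 1228 control cells were in cluster 8. The class ratio of 3.93 for Mt1 and 2.41 for Mt2 sets these clusters against each other, and the median over all genes of the class was -0.32 on the log2 scale. Within cluster 22, Mt1 was 1235 CPM in the knockout and 815 CPM in the control, 0.60 on the log2 scale (0.36 to 0.84). Mt2 was 1308 CPM in the knockout and 1158 CPM in the control, 0.18 on the log2 scale (-0.05 to 0.40). These were the highest Mt2 levels of any cluster with at least 10 cells.

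The balance of Mt1 to Mt2 set germ cells apart from somatic cells in both libraries. Undifferentiated spermatogonia had 0.973 (0.916 to 1.03) Mt1 UMIs per Mt2 UMI in the knockout and 1.04 (0.986 to 1.10) in the control. Differentiating spermatogonia had 0.841 in the knockout and 0.694 in the control, and cells entering meiosis had 0.418 (0.391 to 0.447) in the control. Leydig cells had 3.95 in the knockout and 3.26 in the control, and stroma 7.26 in the knockout and 4.76 in the control. Myoid cells had 8.14 (7.55 to 8.80) in the knockout and 8.33 (7.25 to 9.61) in the control, close to the same in both although both genes were higher in the knockout. That ratio of the whole class was not shared by its clusters. Cluster 5 had 7.22 (4.81 to 11.2) in the knockout and 2.55 (1.91 to 3.46) in the control, while cluster 15 had 8.18 (7.57 to 8.85) in the knockout and 10.7 (9.08 to 12.6) in the control. Sertoli cells had 8.78 (7.96 to 9.70) in the knockout and 3.94 (3.64 to 4.26) in the control.

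Free RNA had a ratio of 3.70 (3.13 to 4.39) in the knockout library and 0.947 (0.807 to 1.11) in the control library. The somatic classes whose ratio was higher in the knockout (Sertoli cells, stroma, macrophages and Leydig cells) thus lay in a library with less Mt2 in its free RNA, and its part was not tested. The ratio is one of UMIs from the 3′ ends and was not divided by gene length, so it is compared between cells, not read as a ratio of molecules made.

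**Figure D5:**
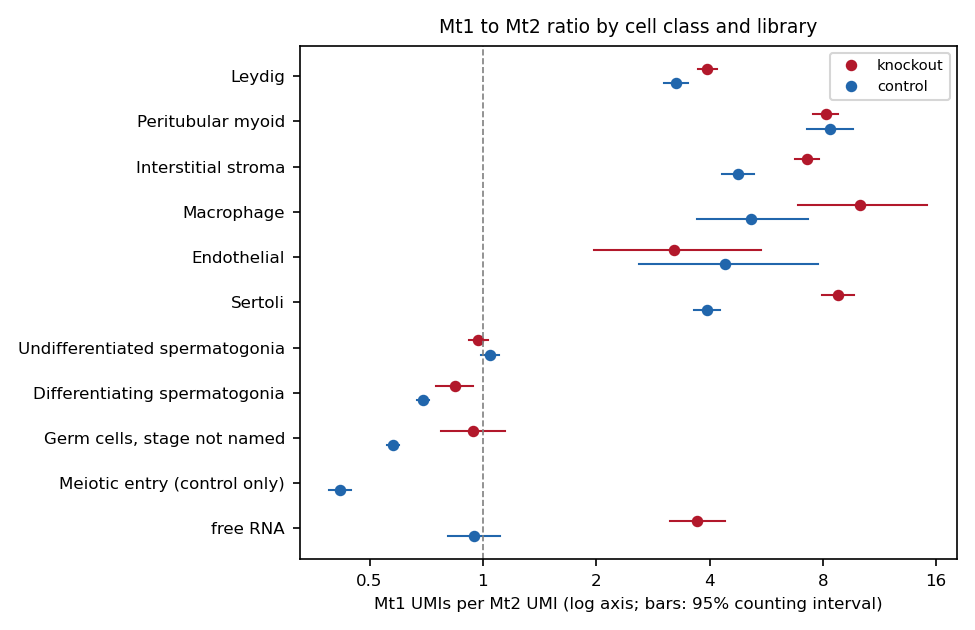
Mt1 UMIs per Mt2 UMI (log axis) by class, knockout (red) above control (blue), with 95% counting intervals and a dashed line at 1. Spermatogonia lie near or below 1 in both libraries, control cells entering meiosis at 0.418, and myoid cells at 8.14 in the knockout and 8.33 in the control.

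In the remaining interstitial classes the members followed no single order. In Leydig cells Mt1 was 1.34-fold (1.28 to 1.40), Mt2 1.11-fold (1.02 to 1.20) and Mt3 1.46-fold (1.12 to 1.92) higher in the knockout, at medians of 22927 and 15708 UMIs in knockout and control. In stroma Mt1 was 1.40-fold (1.33 to 1.47) higher. Of its 5 clusters, cluster 14 had the most Mt1, with 600.1 CPM in the knockout and 381 CPM in the control, and the most immediate-early RNA, with 40760.4 CPM in the knockout and 39667 CPM in the control. Cluster 2, the most numerous, had 211 CPM of Mt1 in the knockout and 146 CPM in the control, beside 19002 and 13909 CPM of immediate-early genes. Cluster 26 was the exception, with 222 CPM in the knockout and 256 CPM in the control (log2 ratio -0.21, interval -0.45 to 0.04). In endothelial cells Mt1 was 1.80-fold (1.29 to 2.51) higher on 71 knockout and 79 control UMIs. Summed immediate-early genes there were 17888 CPM in the knockout and 18836 CPM in the control. The part of immediate-early genes in the Mt1 levels of stroma and endothelial cells was not tested.

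Genes with the most similar pattern over classes were sought over 18 points, the 9 classes in each library, which share libraries, depth and cell types, among 12934 genes. The Pearson correlations of log2(CPM + 1) are descriptions. For Mt1 the 5 nearest were C1qtnf4 (0.870), Gsdme (0.869), Cib2 (0.865), Hspe1 (0.833) and Prorsd1 (0.833). Mt2 came at rank 11 for Mt1, with 0.784. For Mt2 the 5 nearest were Dnajb3 (0.945), Rsl1d1 (0.943), Gm1673 (0.938), Mettl5 (0.933) and Tmem97 (0.933). These 5, and C1qtnf4, Cib2 and Prorsd1, were highest in the knockout germ cells whose stage was not named, as were Mt1 and Mt2. Genes had to reach 20 CPM at their highest point. That class had 61 knockout cells, in which 3 UMIs make 16.6 CPM, so some of these genes were ranked on few UMIs there. For Mt3 they were Cycs (0.927), Slc25a1 (0.913), Rnf181 (0.909), Pip5k1b (0.908) and Tnni3 (0.901). Mt3 had correlations of 0.02 with Mt1 and -0.07 with Mt2.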

How the data were processed

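Whole-testis single cells of 1 knockout and 1 control library were counted. The deposited values are raw UMI counts per gene and barcode, which per the file headers the authors made using Cell Ranger 7.1.0; the submitters' processing notes name mm10, and the barcodes were not filtered to cells. The counts were used as deposited. Cells had at least 1000 UMIs, at least 500 genes and at most 20% mitochondrial UMIs. Doublets were marked with Scrublet as run in scanpy 1.11.5. Its own threshold marked 0 knockout cells, so the control's threshold of 0.187 was used for both libraries (chosen after seeing the data), which removed 275 knockout and 495 control cells. Both libraries were clustered together (2000 variable genes without metallothioneins, 30 components, 15 neighbours, Leiden resolution 1, leidenalg 0.10.2), giving 31 clusters, named where at least 3 markers were up and no other class led the top 10 genes. Unnamed were 1720 knockout and 521 control cells.

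UMIs were summed per class and library, and divided by the class total to give CPM (UMIs per 1000000). Intervals are exact Poisson for levels, exact conditional binomial for ratios and Clopper-Pearson for shares (scipy 1.17.1), at 95%, for counting error only; 0.5 was added to each count in a log2 ratio. Interval code was checked on simulated counts. With 1 library per genotype no test was made. Genes were measured with at least 30 UMIs over both libraries. Named are the members, Mt4, Psma7, the 2 highest and 2 lowest genes of each of 7 lists in myoid and Sertoli cells, and the 5 genes nearest to each member. Some others (Acta2, the stage markers and Mtf1 in myoid cells) were named after their values were seen. The members and lists were chosen with earlier results of these data known. Alternatives were other cell filters, kept doublets, other clusterings, scalings and free RNA subtraction, and, added after seeing the data, single clusters, the control's cluster mix, depth ranges, shared barcodes left out and an unnamed Sertoli-scored cluster added.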

Additional observations from a re-analysis of the deposited data

Results flagged for a closer look

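Mt2 differed in sign between classes. Its log2 ratio of knockout over control was above 0 in 6 classes: 0.59 in undifferentiated spermatogonia, 0.32 in differentiating spermatogonia, 1.27 in germ cells whose stage was not named, 1.49 in peritubular myoid cells, 0.15 in Leydig cells and 1.28 in endothelial cells. It was -0.97 in Sertoli cells and -0.76 in macrophages. In stroma it was -0.13, with an interval across 0 (-0.29 to 0.04). In control macrophages and control endothelial cells the Mt2 level was no higher than free RNA could give. The value for germ cells whose stage was not named sets different clusters against each other, and within cluster 22 it was 0.18 (-0.05 to 0.40). Within the myoid class it was 1.34 in cluster 15 and -0.66 in cluster 5. The signs in myoid, Leydig and endothelial cells and in macrophages reversed in some alternatives, given below. With 1 library per genotype the difference between classes was not tested. Free RNA held 107 CPM of Mt2 in the knockout library and 293 CPM in the control library.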

How the results depend on the processing

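The log2 ratio of Mt1 in peritubular myoid cells, 1.46, stayed above 0 in 20 of 20 alternatives (0.83 to 2.16). That of Mt2 there, 1.49, stayed above 0 in 18 of 20 (-0.66 to 3.11), and that of Mt3 in Sertoli cells, 0.68, in 22 of 24 (-0.13 to 0.87). In all, 30 of 64 values moved by less than the counting interval. The causes of the moves were not tested. With doublets kept, Mt1 was 1.35, Mt2 1.13 and Mt3 0.56. At Leiden resolution 2, Mt1 was 1.37 and Mt2 1.23. With every cell weighted equally, Mt1 was 1.60 and Mt2 0.90. Mt2 was 3.11 with free RNA subtracted at 10% and 1.84 at the measured share. Mt3 was 0.60 with at least 500 UMIs, 0.56 with at least 2000 UMIs, 0.40 with at most 10% mitochondrial UMIs, 0.56 with each library clustered alone, and 0.57 both with metallothioneins kept in the clustering and with stress genes left out of it.

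The other settings were chosen after seeing the data. In single clusters, Mt1 was 0.83 in cluster 5 and 0.96 in cluster 15, Mt2 reversed to -0.66 in cluster 5, and Mt3 was 0.67 in cluster 3, 0.55 in cluster 1 and 0.045 in cluster 21 and reversed to -0.13 in cluster 0 and -0.071 in cluster 16. With the control's mix of clusters, Mt1 was 0.95, Mt2 0.99 and Mt3 0.25. In cells of 1000 to 3000, 3000 to 10000 and over 10000 UMIs, Mt1 was 2.16, 1.28 and 1.20, and Mt3 was 0.39, 0.87 and 0.42. Mt2 was -0.52 in cells of 1000 to 3000 UMIs and 1.26 in those of 3000 to 10000. Mt3 was 0.57 with the unnamed Sertoli-scored cluster added.

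Of 250 values for other classes, 197 stayed within the interval, 45 moved and 8 reversed. Mt2 in Leydig cells reversed to -0.0041 with at least 2000 UMIs, -0.045 with at most 10% mitochondrial UMIs, -0.037 at Leiden resolution 2, -0.27 with each library clustered alone and -0.040 with stress genes left out. Mt1 in endothelial cells was -0.047 with each library clustered alone. With every cell weighted equally, Mt2 was -1.34 in endothelial cells and 0.062 in macrophages. The share of genes past 2-fold, 3.6% in myoid and 14% in Sertoli cells, was 1.44% and 10.7% with at least 100 UMIs per gene and 22.8% and 28.7% with no minimum beyond 1 UMI. No paired analysis was possible because each genotype has 1 library. Depth limits Mt3 outside Sertoli and Leydig cells, and all members in endothelial cells and macrophages.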

Other observations

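Clusters left without a class name also held metallothionein RNA. Cluster 7, whose markers scored as stroma but which had Cldn1 among its leading genes, had 745 CPM of Mt1 in 604 knockout cells and 459 CPM in 402 control cells, and 97.8 and 56.0 CPM of Mt2. Its Mt1 log2 ratio was 0.70 (0.63 to 0.77), and its Mt1 to Mt2 ratio of 7.62 in the knockout and 8.19 in the control lay near that of myoid cells. Cluster 6, scored as Sertoli, had 67.3 CPM of Mt3 in 932 knockout cells and 78.8 CPM in 104 control cells.

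Classes with fewer than 50 cells were read as values only. Rete or mesothelial epithelium had 508 CPM of Mt1 in 14 knockout cells and 390.1 CPM in 16 control cells, and 267 and 215 CPM of Mt2, so that its Mt1 to Mt2 ratio, 1.91 in the knockout and 1.81 in the control, lay between those of germ cells and those of most somatic classes. Pericytes had 207 CPM of Mt1 in 25 knockout cells and 289 CPM in 42 control cells. Over all cells of a library Mt2 was 85.9 CPM in the knockout and 192 CPM in the control, while Mt1 was 363 CPM in the knockout and 223 CPM in the control. Germ cells, which had the most Mt2, made up fewer of the knockout cells: differentiating spermatogonia were 0.482% of cells in the knockout and 7.18% in the control. The part of the cell mix in the levels over all cells was not tested.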
